A study of Mus musculus with 9 samples.

Results

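LPS-stimulated gliospheres were compared with freshly sorted GFAP-glia on 6 of the 9 arrays of the study, 3 in each group, chosen by their labels. The 3 arrays of untreated gliospheres were the reference that showed each difference before LPS. All cells came from the small intestine of FVB mice carrying the hGFAP-eGFP transgene at postnatal day 7. In these mice the human GFAP promoter drives the fluorescent reporter, so the sort selected cells by reporter and not by endogenous Gfap, and the animals of 1 litter were pooled for each replicate. The in vivo cells went from the sorter straight into lysis buffer. The gliosphere cells were sorted in the same way, grew for 2 weeks with EGF and bFGF (40 ng/ml each) at 2% oxygen, and were passaged onto uncoated plastic, where they formed free-floating spheres. Each culture was then divided, and 1 part received LPS at 100 µg/ml for 48 h while the other was left untreated. LPS and untreated arrays of the same number therefore share a litter, whereas no label ties an in vivo array to a culture. Culture time, growth factors, oxygen, sphere growth and LPS all separate the LPS-stimulated gliospheres from the sorted cells and cannot be told apart in that comparison alone.

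Enteric glia surround the neurons of the gut's ganglia and respond to bacterial products and to signals from neurons and immune cells. LPS, a glycolipid that coats Gram-negative bacteria, is passed by Lbp and Cd14 to the receptor Tlr4 with its partner Ly96, and signalling through Myd88 frees NF-kB from its inhibitors. NF-kB then switches on chemokines, cytokines and acute-phase genes together with genes that shut it off again, among them Nfkbia and Tnfaip3.

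The promoters of 6 genes described below are printed because each holds a match to the NF-kB consensus. They are the 250 bases before a transcription start, from RefSeq on GRCm38.p6. Each is read 5′ to 3′ on the strand of its gene, with the matched bases in capitals. Tnfaip3 has 2 such windows, and the printed one is the 1 that holds a match. The windows are chr5:90890995-90891244 on the plus strand for Cxcl1, chr5:90903649-90903898 on the plus strand for Cxcl2, chr5:30012864-30013113 on the plus strand for Il6, chr12:55492648-55492897 on the minus strand for Nfkbia, chr10:19015411-19015660 on the minus strand for Tnfaip3 and chr3:83841609-83841858 on the minus strand for Tlr2. Cxcl1, Cxcl2 and Il6 code for secreted signals, Nfkbia and Tnfaip3 for feedback inhibitors of NF-kB, and Tlr2 for a receptor of bacterial lipoproteins.
Cxcl1: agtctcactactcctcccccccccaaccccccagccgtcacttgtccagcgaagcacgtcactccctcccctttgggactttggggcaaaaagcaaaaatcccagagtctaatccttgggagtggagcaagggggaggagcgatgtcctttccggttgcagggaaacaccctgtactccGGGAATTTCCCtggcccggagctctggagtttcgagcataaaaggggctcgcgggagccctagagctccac
Cxcl2: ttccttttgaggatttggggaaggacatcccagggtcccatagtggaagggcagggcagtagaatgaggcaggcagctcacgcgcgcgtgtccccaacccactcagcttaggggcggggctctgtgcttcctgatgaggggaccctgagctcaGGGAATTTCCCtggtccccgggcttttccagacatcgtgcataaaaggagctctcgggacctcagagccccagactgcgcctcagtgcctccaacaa
Il6: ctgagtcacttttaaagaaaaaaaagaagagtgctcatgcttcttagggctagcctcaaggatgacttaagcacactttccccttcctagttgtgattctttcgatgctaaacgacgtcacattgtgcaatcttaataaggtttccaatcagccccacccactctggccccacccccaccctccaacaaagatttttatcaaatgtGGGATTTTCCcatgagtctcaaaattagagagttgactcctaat
Nfkbia: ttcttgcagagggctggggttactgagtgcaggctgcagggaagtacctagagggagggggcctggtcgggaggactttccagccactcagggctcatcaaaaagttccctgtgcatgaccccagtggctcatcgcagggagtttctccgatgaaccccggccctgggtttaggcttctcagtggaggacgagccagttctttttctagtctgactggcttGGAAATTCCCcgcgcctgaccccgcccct
Tnfaip3: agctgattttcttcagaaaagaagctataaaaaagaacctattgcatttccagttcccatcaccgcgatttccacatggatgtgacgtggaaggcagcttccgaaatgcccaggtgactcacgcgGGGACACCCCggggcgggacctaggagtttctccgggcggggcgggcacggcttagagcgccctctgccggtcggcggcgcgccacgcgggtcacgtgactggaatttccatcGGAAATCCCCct
Tlr2: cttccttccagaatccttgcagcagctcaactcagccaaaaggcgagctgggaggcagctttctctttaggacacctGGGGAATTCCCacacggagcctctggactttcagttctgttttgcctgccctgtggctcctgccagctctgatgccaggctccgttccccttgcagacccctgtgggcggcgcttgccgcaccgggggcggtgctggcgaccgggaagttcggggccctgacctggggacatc

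The last base of the match nearest to the start lay 61 bases before it in Cxcl1, 87 in Cxcl2, 35 in Il6, 20 in Nfkbia, 3 in Tnfaip3 and 163 in Tlr2. Of the 10796 genes tested, 8723 had a promoter in the RefSeq table, and 5.57% of those held the consensus on either strand. A gene counted where any of its windows held a match, so genes with several starts had more chances of one. The share was 8 of 28 genes (28.6%) among those that rose above the in vivo level only with LPS. It was 3 of 19 (15.8%) among genes whose higher level was enlarged by LPS, and 25 of 563 (4.44%) among higher genes that LPS left alone. It was 21 of 377 (5.57%) among lower genes that LPS left alone and 0 of 6 among the genes whose difference LPS undid. Among genes whose lower level was enlarged by LPS it was 1 of 7 (14.3%). Shares above that of all tested genes were also seen for other motifs. These counts are small, and no test of the shares was run. A C/EBP motif was held by 9.31% of the tested genes with a promoter, 5 of 28 (17.9%) of the new higher and 6 of 19 (31.6%) of the enlarged higher ones. For an AP-1 motif these shares were 6.09%, 6 of 28 (21.4%) and 3 of 19 (15.8%). These classes are defined below. A match describes the letters of a window and not a bound site.

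Each array is an Illumina MouseRef-8 v2.0 BeadChip, read as 1 intensity per probe. Levels are given as normalised log2 intensity, on which a difference of 1 is 2-fold, and a probe counts as above background on an array where its detection p-value is 0.05 or less. Between 46.6% and 50.1% of probes were above background on each array, and median raw signals ran from 124 to 216. Replicate gliosphere arrays correlated at 0.978 to 0.982 across probes. In vivo arrays 2 and 3 correlated at 0.965, but in vivo array 1 at only 0.924 and 0.91 with them, and it stands apart from its group. The median SD between replicates was 0.529 in vivo, 0.217 with LPS and 0.243 untreated. The number of arrays, 3 in each group, limits the precision, and p-values measure the spread between these litters.

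The labelled cell type was checked against its markers. Gfap itself, the intermediate filament that names these glia, read 4.18, 3.75 and 3.00 in vivo, 7.31, 8.89 and 7.85 in untreated gliospheres and 8.23, 8.68 and 8.53 with LPS. It was above background on none of the 3 in vivo arrays and on all gliosphere arrays, so it was at least 13.4-fold higher with LPS than in vivo (limma, adjusted p = 6.8e-05) and at least 9.7-fold higher untreated. Such a bound sets the mean of the brighter group against the dim group's mean of, on each array, the higher of the probe's own level and the lowest level among probes above background. S100b, a calcium-binding glial protein, read 3.20, 5.13 and 5.98 in vivo and 5.95, 5.28 and 4.21 with LPS. These S100b arrays overlapped, and the difference of 0.37 ± 0.70 (SE) did not pass the test (adjusted p = 0.73). The nerve growth factor receptor Ngfr (12.94, 13.60 and 13.11 in vivo against 12.70, 13.01 and 12.64) and the endothelin receptor Ednrb (13.49, 14.02 and 14.25 against 14.35, 13.83 and 14.29) were above background on every array in both groups. Of the 10 glial markers tested, 3 were higher with LPS than in vivo (Gfap, Slc1a3 and Sox2) and 2 lower (Apoe and Fabp7). Of all genes tested, 14.8% were higher and 14.5% lower. The call of Sox2 was lost without LPS array 1 or 2 or in vivo array 2 or 3 (highest adjusted p = 0.0542). Sox10 was not analysed here.

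Markers of other cell types were present in the sorted cells. Their counts of higher and lower genes stand beside the same 14.8% and 14.5% of all genes tested. The mean level of 17 neuronal markers was 10.9 to 11.2 on the in vivo arrays and 8.91 to 9.04 with LPS, and 11 of them were lower with LPS and none higher. That of 12 smooth muscle markers was 7.77 to 9.02 against 6.51 to 6.64, with in vivo array 1 the highest, and 6 were lower with LPS and 1, Cald1, higher. Acta2, smooth muscle actin, was among the lower ones, at -2.06 (adjusted p = 0.0026). The mean of 8 macrophage and leukocyte markers was 4.38 to 5.07 in vivo and 4.25 to 4.69 with LPS, and 4 of the 8 were above background on no LPS array. In this list Adgre1, which codes for the macrophage antigen F4/80, read 9.90, 10.28 and 9.65 in vivo and 7.19, 5.31 and 5.56 with LPS, with no overlap. Lyz2, the lysozyme of phagocytes, went the other way, at 2.28, 4.17 and 5.22 in vivo and 7.29, 8.93 and 6.61 with LPS. Fewer cells of a type and less RNA per cell cannot be told apart in these bulk arrays, and the part of such markers in the differences below was not tested.

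LPS-stimulated gliospheres differed from GFAP-glia in vivo at 3166 of the 10796 genes tested, which is 29.3% of them. Of these, 1599 genes (14.8%) were higher with LPS and 1567 (14.5%) lower. The test was limma's moderated test, with the Benjamini-Hochberg adjustment over all probes and a threshold of 0.05. Untreated gliospheres differed from the same in vivo arrays at 2807 genes (26%), 1419 higher and 1388 lower. The direct comparison of LPS with untreated passed at 104 genes (0.963%), of which 82 (0.76%) were higher with LPS and 22 lower. The in vivo arrays cancel in this difference but not in its p-values and intervals, which use a spread estimated from all 9 arrays. The median residual SD was 0.45 over all 9 arrays and 0.277 in the gliosphere arrays alone, where 159 genes passed. Among all genes tested the arrays of LPS and in vivo did not overlap in 45.6%, and those of LPS and untreated in 19.7%. The typical size was 0.63 for the difference of LPS from in vivo, 0.60 for that of untreated from in vivo and 0.20 for LPS against untreated, as medians of absolute log2 differences over all genes. Without in vivo array 1 the LPS comparison with in vivo passed at 3904 genes.

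Both comparisons with in vivo share the in vivo arrays, so each gene was sorted by its calls in all 3 comparisons and no likeness was read from the shared arrays. A difference was enlarged where LPS and untreated both differed from in vivo in 1 direction and LPS added to it past the test. It was new with LPS where only LPS passed against in vivo and the LPS change passed. It was undone where the untreated difference passed, LPS moved the gene back past the test and the remaining difference did not pass, and reduced where the remaining difference still passed. It was left alone within 2-fold where both differences passed in 1 direction, the LPS change did not, and the 95% confidence interval of that change lay inside 2-fold either way. There were 37 enlarged genes (0.343%), 48 new with LPS (0.445%), 13 undone (0.12%), 4 reduced (0.0371%), 1 turned to the other side (0.00926%) and 1168 left alone (10.8%). Another 1168 genes differed in 1 direction in both comparisons, with an LPS interval too wide to call them left alone. A further 740 genes passed against in vivo only with LPS and 416 only untreated, in both cases without a called LPS change.

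**Figure D1:**
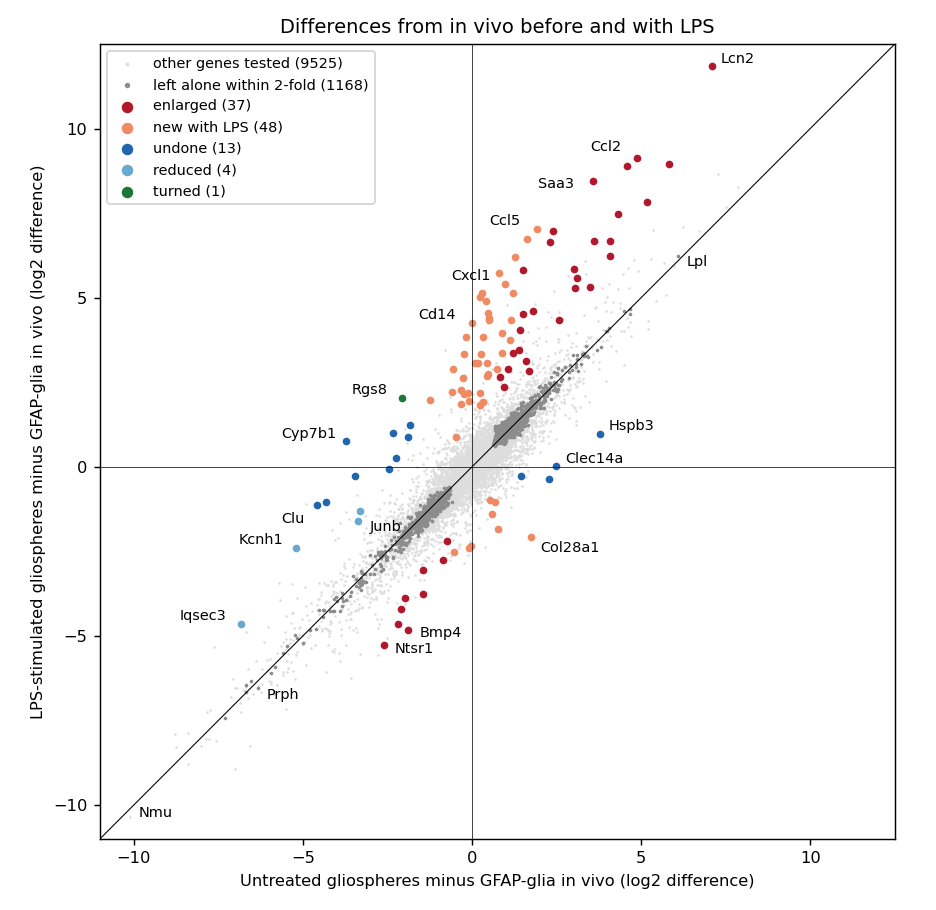
Each point is 1 of the genes tested, with the log2 difference of untreated gliospheres from GFAP-glia in vivo on the x axis and that of LPS-stimulated gliospheres on the y axis, coloured by class. Most called genes lie along the diagonal, where both differences are equal. Both axes subtract the same in vivo arrays, which alone draws points towards the diagonal, so no likeness was read from this placement. The 37 enlarged genes lie beyond the diagonal. The 48 new ones lie between -1.24 and 1.91 on the x axis. The 13 undone ones lie between -1.12 and 1.23 on the y axis. Values of genes not above background on an axis group are fitted values and not bounds.

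LPS enlarged a difference from in vivo upwards in 28 genes, a group led by acute-phase proteins, chemokines and matrix enzymes. Of the 28, 18 were above background on no in vivo array. Their median difference from in vivo was 2.79 untreated and 5.70 with LPS as fitted, and 1.93 and 4.33 with those 18 at their lower bounds. Lcn2, lipocalin 2, which binds the iron carriers of bacteria, read 14.12, 14.31 and 14.40 with LPS, 11.28, 7.73 and 9.55 untreated and 2.17, 2.46 and 2.67 in vivo. The 3 groups did not overlap, and untreated array 1 was the highest of its group. Lcn2 was at least 743-fold higher with LPS than in vivo (adjusted p = 7.9e-06), against at least 27.5-fold untreated, and LPS added 4.76 ± 0.71 (SE; adjusted p = 0.018). Saa3, an acute-phase serum amyloid protein, read 13.44, 12.48 and 12.82 with LPS, 9.95, 6.39 and 7.74 untreated and 4.48, 4.40 and 4.50 in vivo. It showed the same order of groups, without overlap, at least 289-fold above in vivo with LPS and at least 9.76-fold untreated. The LPS change of Lcn2 and of Saa3 was lost without untreated array 3 or any 1 LPS array (highest adjusted p = 0.0954 and 0.0921), and with the litter as a block in the gliosphere arrays (adjusted p = 0.0873 and 0.0541). In the authors' normalised values the untreated difference of Saa3 from in vivo was lost (adjusted p = 0.0527).

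Among the chemokines, Ccl2, which attracts monocytes, read 12.33, 12.44 and 11.94 with LPS, 9.27, 7.16 and 7.48 untreated and 3.29, 3.19 and 2.83 in vivo. It was thus detectable in gliospheres before LPS and in no sorted sample. The Ccl2 level was at least 180-fold above in vivo with LPS (adjusted p = 5.1e-06) and at least 9.38-fold untreated, and the LPS step of 4.27 ± 0.49 passed the test (adjusted p = 0.0069; 0.054 with the litter as a block). Ccl7, from the same gene cluster, was at least 131-fold above in vivo with LPS and at least 6.68-fold untreated. Its LPS step was lost without untreated array 2 or 3 or LPS array 2 or 3 (highest adjusted p = 0.0952) and with the litter block (0.0583).

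Enzymes and inhibitors of matrix breakdown were enlarged with every single array left out, with the exception of Adamts4. Timp1, an inhibitor of metalloproteinases, read 11.86, 12.82 and 12.92 with LPS, 9.46, 9.27 and 9.43 untreated and 3.28, 3.95 and 3.50 in vivo. These 3 groups are widely separated, with a step of 3.15 ± 0.32 from untreated to LPS (adjusted p = 0.0041), and Timp1 was at least 222-fold above in vivo with LPS and at least 25-fold untreated. Mmp9, a gelatinase, read 10.88, 11.04 and 11.24 with LPS, 8.34, 7.54 and 8.03 untreated and 4.34, 4.01 and 4.76 in vivo. Mmp10, a stromelysin, read 10.37, 9.96 and 10.75, then 7.90, 6.44 and 7.21, and in vivo 2.82, 3.27 and 2.54. Both proteinases rose by about the same step with LPS, 3.08 ± 0.29 and 3.18 ± 0.39 (adjusted p = 0.0026 and 0.0083), and stood at least 79.6-fold and 49.2-fold above in vivo. Adamts4, which cuts aggrecan, was at least 93.7-fold above in vivo with LPS, and its LPS step was lost without any 1 gliosphere array (highest adjusted p = 0.157).

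Among the 14 tested genes that sense LPS or belong to Toll-like receptor signalling, 2 were enlarged, Tlr2 and Map3k8. Tlr2, whose promoter is printed above, read 11.05, 10.80 and 10.24 with LPS, 8.38, 7.98 and 8.29 untreated and 5.37, 4.75 and 5.19 in vivo. No array of 1 group reached the level of the next group, the difference from in vivo was 5.59 ± 0.28 with LPS and 3.11 ± 0.28 untreated (adjusted p = 4.1e-06 and 0.0001), and the step of 2.48 ± 0.28 stayed past the test with each array left out. Casp4, which binds LPS inside the cell, was at least 71.2-fold above in vivo with LPS and at least 11.8-fold untreated. Map3k8, a kinase that links Toll-like receptors to the ERK pathway, was at least 9.83-fold and 1.42-fold above in vivo. The Map3k8 step was 2.79 ± 0.30 (adjusted p = 0.0048; 0.0541 with the litter as a block). In the authors' normalised values the untreated difference of Map3k8 from in vivo, which makes the gene enlarged, did not pass (adjusted p = 0.125). Cp, ceruloplasmin, a copper protein that oxidises iron, read 11.70, 11.34 and 12.00 with LPS, 8.19, 6.33 and 7.44 untreated and 5.48, 5.64 and 3.95 in vivo, above background on 2 of the 3 in vivo arrays. It rose from 2.30 ± 0.55 to 6.66 ± 0.55 above in vivo, and the step was lost without untreated array 3 or LPS array 3 (adjusted p = 0.0511 and 0.0542). The difference of Cp between untreated and in vivo was lost without untreated array 1 or 3 (highest adjusted p = 0.0573).

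The lead by size of the LPS step included Tnfaip2, a gene induced by tumour necrosis factor, and Car13, a carbonic anhydrase of the cytosol. Tnfaip2 read 9.22, 10.12 and 9.34 with LPS, 5.90, 4.29 and 4.80 untreated and 2.44, 2.97 and 2.36 in vivo. Car13 read 8.33, 8.53 and 8.29 with LPS, 4.34, 3.65 and 4.24 untreated and 2.71, 2.27 and 2.75 in vivo, above background with LPS alone. The LPS step of Tnfaip2 was 4.56 ± 0.43 (adjusted p = 0.0026). Car13 was at least 13.4-fold higher with LPS than untreated (adjusted p = 0.00057), while its order between untreated and in vivo, on which its class rests, was not measured. Tnfaip2 missed the threshold with the litter as a block (0.0561) and Car13 did not, and in the authors' normalised values the untreated difference of Tnfaip2 from in vivo was lost (0.0919). The other enlarged higher genes, named after their values were seen, were Gxylt2, Fcgr2b, Il20rb, Osmr, Atp8b1, Cd82, Lum, Runx1, Nfkbie, P4ha2, Cd44, Rassf4, Susd6 and Slc11a2. Among them Cd44, the hyaluronan receptor, went from 2.57 ± 0.28 above in vivo untreated to 4.35 ± 0.28 with LPS.

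LPS enlarged a difference downwards in 9 genes, which include receptors for peptide signals. Their median difference from in vivo was -1.88 untreated and -3.87 with LPS (-3.60 with bounds). Ntsr1, a neurotensin receptor, read 3.50, 4.25 and 3.83 with LPS, above background on no array, against 6.46, 6.29 and 6.86 untreated and 8.67, 9.33 and 9.44 in vivo. Ramp1, a subunit of the CGRP receptor, read 6.84, 7.07 and 6.09, then 9.03, 9.41 and 8.91, and in vivo 11.24, 11.24 and 11.47. In both genes the untreated arrays lay midway, with no overlap on either side. Ntsr1 was at least 21.8-fold lower with LPS than in vivo, and Ramp1 fell by 2.45 ± 0.29 from untreated to LPS (adjusted p = 0.0072) and lay 4.65 ± 0.29 below in vivo. Agtr1a, the angiotensin II receptor, read 5.64, 5.81 and 5.64 with LPS, 7.31, 7.66 and 7.79 untreated and 9.39, 9.67 and 9.64 in vivo, the same staircase. The calls of Ntsr1, Ramp1 and Agtr1a held with each array left out.

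Bmp4, a ligand of the bone morphogenetic protein family, read 5.09, 4.95 and 3.81 with LPS, 7.66, 7.57 and 7.44 untreated and 8.83, 9.66 and 9.83 in vivo. It too stepped down from in vivo to untreated and again to LPS without overlap, to 4.83 ± 0.39 below in vivo, but the LPS step was lost without any 1 untreated array (highest adjusted p = 0.0593). Ppargc1a, a coactivator of mitochondrial genes, was at least 7.72-fold lower than in vivo with LPS, and Nrarp, a target and inhibitor of Notch signalling, lay 3.06 ± 0.28 below in vivo. The steps of Ppargc1a, Nrarp and the potassium channel gene Kcnd2 were lost without 4, 7 and 6 of the 9 arrays in turn (highest adjusted p = 0.0998, 0.201 and 0.141), those of Nrarp and Kcnd2 also with the litter block (0.0775 and 0.0557). In the authors' normalised values the LPS step of Ntsr1, Bmp4, Ppargc1a, Kcnd2 and Nrarp did not pass (adjusted p = 0.2, 0.0659, 0.233, 0.679 and 0.113). Gpc6 and Rcan2 complete the group and were named after their values were seen.

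**Figure D2:**
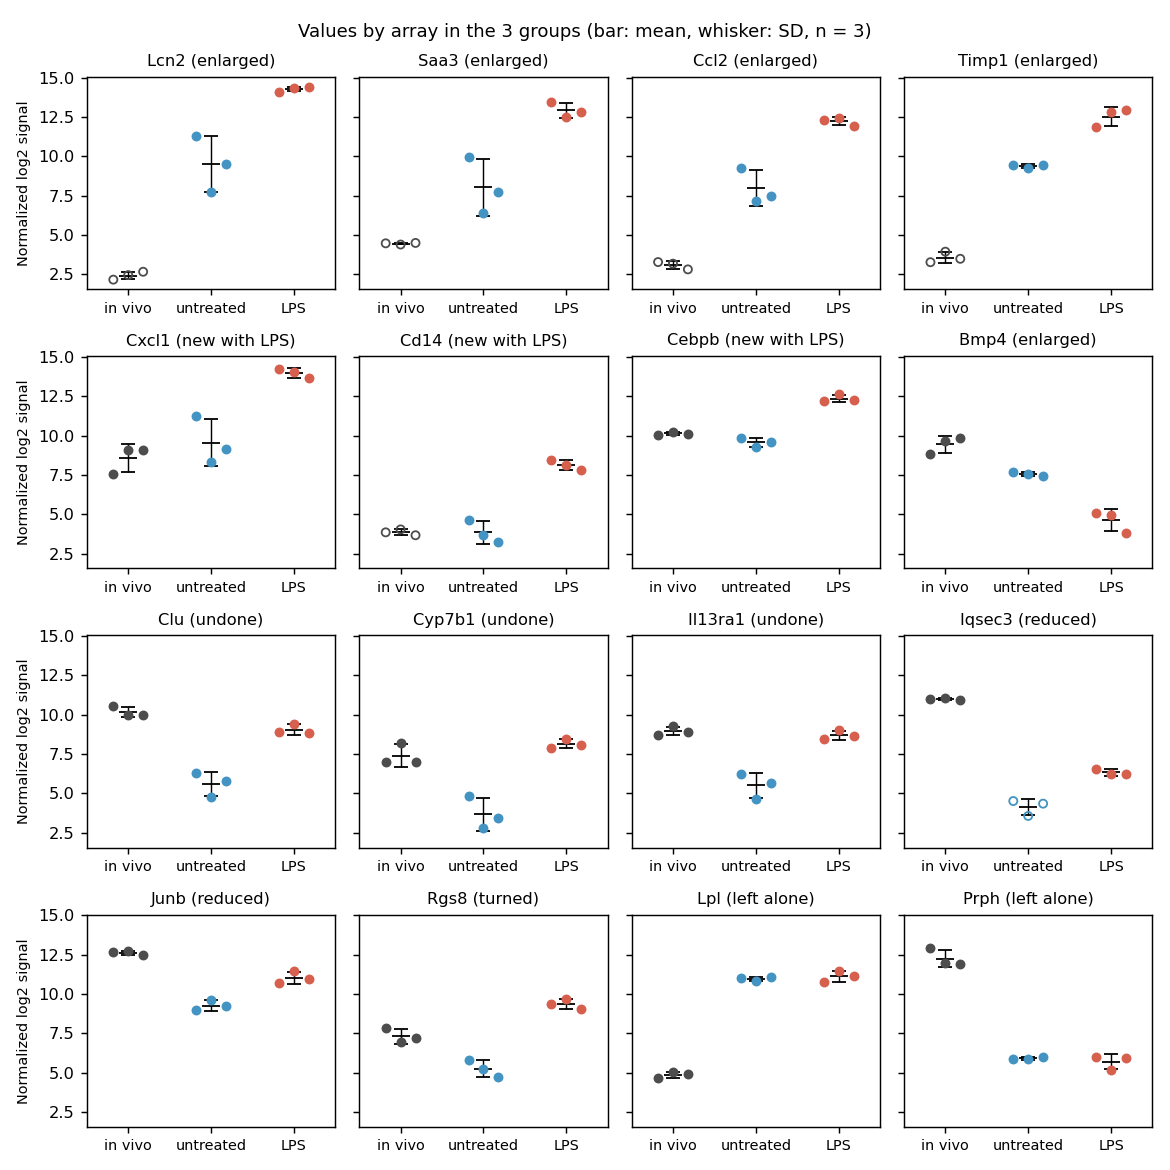
Log2 levels of 16 genes on each of the 9 arrays, in vivo, untreated and LPS, with 1 point per array, a bar at the group mean and whiskers of 1 SD (n = 3). Open circles mark groups in which the gene was above background on no array. The top genes form 3 steps from in vivo to untreated to LPS, the middle ones rise or return with LPS, and Lpl and Prph are alike with and without LPS.

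Differences that appeared only with LPS numbered 40 upwards and 8 downwards. Of the 40, 21 were above background on no in vivo array and 17 on no untreated array. Their median difference from in vivo with LPS was 3.34 as fitted and 2.62 with bounds. Cxcl1, a chemokine for neutrophils, was measurable in all groups, at 14.25, 14.05 and 13.66 with LPS, 11.23, 8.31 and 9.12 untreated and 7.53, 9.11 and 9.09 in vivo. The untreated and in vivo arrays of Cxcl1 overlapped and the LPS arrays lay above all of them, 5.41 ± 0.71 over in vivo (adjusted p = 0.00057) against 0.98 ± 0.71 untreated (adjusted p = 0.34). Its LPS step was lost without untreated array 2 or 3 or any 1 LPS array (highest adjusted p = 0.115) and with the litter block (0.0627). Cxcl2, Cxcl5 and Ccl5 were at least 32.1-fold, 16.1-fold and 30.1-fold above in vivo with LPS. Their LPS steps all failed the litter block (adjusted p = 0.054, 0.064 and 0.0918), and that of Cxcl5 was lost without any array but untreated array 1 (highest adjusted p = 0.179). Those of Cxcl2 and Ccl5 were lost without untreated array 3 or LPS array 2, and Ccl5 also without LPS array 3 (highest adjusted p = 0.0637 and 0.0704).

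The genes of this group that held with every single array left out were Cd14, Cebpb, Cx3cl1, Mmp3, Nr1h3, Slc15a3, Slc7a11 and Zc3h12a. Cd14, the co-receptor that hands LPS to Tlr4, read 8.44, 8.11 and 7.81 with LPS, 4.67, 3.68 and 3.23 untreated and 3.85, 4.04 and 3.67 in vivo. The 2 reference groups overlapped at background and Cd14 was at least 10.4-fold above in vivo with LPS (adjusted p = 5.3e-05). Cx3cl1, the membrane-bound chemokine fractalkine, read 9.71, 10.11 and 10.42 with LPS, 6.91, 6.40 and 6.38 untreated and 6.02, 6.11 and 6.59 in vivo. Its difference from in vivo was 3.84 ± 0.28 with LPS (adjusted p = 2.3e-05) and 0.32 ± 0.28 untreated (0.43). Cebpb, a C/EBP family factor that drives acute-phase genes, read 12.19, 12.61 and 12.25 with LPS, 9.83, 9.28 and 9.58 untreated and 10.06, 10.25 and 10.11 in vivo. Here the untreated arrays all lay below the in vivo arrays and the LPS arrays all above.

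Regulators of NF-kB signalling, inhibitors among them, appeared in the same class. Nfkbia, the inhibitor IkBa, read 11.30, 12.00 and 11.21 with LPS, 9.04, 8.95 and 8.63 untreated and 9.03, 8.19 and 8.12 in vivo, so untreated and in vivo overlapped and LPS stood 3.05 ± 0.325 above in vivo (adjusted p = 0.00018). Tnfaip3, the ubiquitin-editing inhibitor A20, lay 3.96 ± 0.44 above in vivo, where it was above background on 1 of 3 arrays, with an LPS step lost without untreated array 2 or 3 or LPS array 2 or 3 (highest adjusted p = 0.0946). Zc3h12a, a nuclease that degrades cytokine mRNAs, read 8.45, 8.50 and 8.49 with LPS, 6.30, 6.16 and 6.13 untreated and 5.53, 6.12 and 5.56 in vivo. Its LPS arrays were the tightest of those shown and stood 2.74 ± 0.23 above in vivo (adjusted p = 4.45e-05). Nfkbiz, an atypical IkB protein, stood 2.17 ± 0.37 above in vivo with LPS. Nfkbiz kept its class in only 4 of the 9 fits with 1 array left out.

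Secreted cytokines of the class were near background without LPS. Il6 read 6.91, 6.04 and 6.95 with LPS and was above background on no untreated and no in vivo array, which put it at least 3.72-fold above in vivo (adjusted p = 0.00083). Csf2, the growth factor GM-CSF, was at least 6.16-fold above in vivo. The LPS steps of Il6 and Csf2 were lost without 5 and 4 of the 9 arrays in turn (highest adjusted p = 0.088 and 0.0847), and that of Csf2 with the litter block (0.0939). The other 2 of the 5 with the largest LPS steps were Vmn1r181, a vomeronasal receptor gene by the array's annotation, and Ms4a6d, at least 29-fold and 9.56-fold above in vivo. Their steps were lost without untreated array 3 or any 1 LPS array, that of Ms4a6d also without untreated array 2 (highest adjusted p = 0.121 and 0.114), and with the litter block (0.0786 and 0.107). Gbp5 and Gbp2 belonged to the class too. The Gbp5 step was lost without untreated array 2 or 3, any 1 LPS array or in vivo array 2 (highest adjusted p = 0.162). That of Gbp2 was lost without untreated array 2 or 3 or LPS array 1 or 2 (highest adjusted p = 0.0948). Both failed the litter block (0.0667 and 0.0541). Members named after their values were seen were Cxcl16, Mmp13, Rassf10, Chil1, Fyb, Ccl11, Crispld2, Dram1, Scara3, Pdlim4, Lcp2, Rgs16, Grem1, S100a8, Wnt10a, Lbp, Noct, Il11 and Nxn.

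Of the 8 genes called lower than in vivo only with LPS, 2 were above background on no in vivo and no LPS array, so that their order was not measured. Eln, elastin, read 9.89, 9.97 and 9.99 with LPS, 11.58, 11.51 and 11.33 untreated and 10.61, 10.98 and 11.21 in vivo. Col28a1, a beaded-filament collagen, read 7.69, 6.18 and 5.38 with LPS, 9.63, 10.80 and 10.32 untreated and 8.94, 8.69 and 7.90 in vivo. In both genes every untreated array lay above and every LPS array below the in vivo arrays. Eln ended 0.98 ± 0.22 below in vivo (adjusted p = 0.011) and Col28a1 2.09 ± 0.57 below (adjusted p = 0.024). Eln kept its class in only 3 of the 9 fits with 1 array left out. The Col28a1 difference from in vivo was lost without LPS array 2 or 3 or in vivo array 1 or 2 (highest adjusted p = 0.0816), and its LPS step without untreated array 2 or 3 or LPS array 2 or 3 (0.0998) and with the litter block (0.103). Spon1, an extracellular matrix protein, ended 1.84 ± 0.39 below in vivo. The steps of Spon1, Angptl1, Efhd1 and Kirrel3 were lost without 4, 3, 5 and 6 of the 9 arrays in turn (highest adjusted p = 0.103, 0.0659, 0.0992 and 0.152), and that of Kirrel3 with the litter block (0.0598). Il2rb and Cenph, the pair below background, complete the group.

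LPS undid a difference in 13 genes, of which 9 were lower in untreated gliospheres than in vivo and returned upwards. The class rests on a remaining difference that misses the test, which does not show equality, so the interval of that difference is given. The untreated arrays also enter both the untreated difference and the LPS step, with opposite sign. An untreated mean that was off by sampling alone would make both, here and in the reduced and turned classes, and these tests cannot separate that. Cyp7b1, an oxysterol hydroxylase, read 7.91, 8.46 and 8.10 with LPS, 4.82, 2.79 and 3.44 untreated and 7.02, 8.22 and 6.98 in vivo. The LPS arrays of Cyp7b1 overlapped the in vivo arrays and the untreated arrays lay below both. Its difference from in vivo was -3.73 ± 0.53 untreated (adjusted p = 0.0011) and 0.75 with LPS (95% confidence interval -0.44 to 1.93). Il13ra1, a receptor subunit for interleukins 4 and 13, read 8.47, 9.02 and 8.62 with LPS, 6.22, 4.65 and 5.65 untreated and 8.72, 9.25 and 8.91 in vivo, again with overlap after LPS and none before. The remaining difference of Il13ra1 was -0.26 (-1.13 to 0.61), from -3.46 ± 0.39 untreated. Both calls held with each array left out, and both LPS steps missed the threshold with the litter block (adjusted p = 0.0587 and 0.0736).

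Clu, the extracellular chaperone clusterin, read 8.89, 9.44 and 8.84 with LPS, 6.27, 4.75 and 5.77 untreated and 10.54, 9.99 and 10.01 in vivo. LPS recovered much of the deficit of Clu but all LPS arrays stayed below all in vivo arrays. Its remaining difference was -1.12 (-2.00 to -0.24; adjusted p = 0.059), and it passed the test without untreated array 1 or 2, which would make Clu reduced and not undone. It also passed in the authors' normalised values (adjusted p = 0.00485), with quantile normalisation (0.0153), without background correction (0.0182), in the fit of the compared groups alone (0.041) and with a trended prior (0.0373). Dcn, decorin, a collagen-binding proteoglycan, read 12.84, 13.21 and 13.16 with LPS, 11.18, 9.61 and 10.01 untreated and 12.76, 12.47 and 11.30 in vivo. The untreated Dcn arrays lay below and the LPS arrays above the in vivo arrays, with a remaining difference of 0.89 (-0.18 to 1.97). Angptl4, an inhibitor of lipoprotein lipase, was placed likewise, at 7.39, 8.07 and 7.88 with LPS, 5.07, 3.60 and 4.62 untreated and 5.96, 7.12 and 7.24 in vivo. The steps of Angptl4 and of Susd2, also undone, were lost without 3 and 6 of the 9 arrays in turn (highest adjusted p = 0.0805 and 0.129), and those of Clu, Angptl4 and Susd2 with the litter block (0.0653, 0.0674 and 0.11). In the authors' normalised values the LPS step of Susd2 did not pass (adjusted p = 0.27). Pgf, Rbpms and S1pr3 were also undone and were named, like Dcn, after their values were seen. Dcn, Pgf, Rbpms and S1pr3 each kept their class in only 3 of the 9 fits with 1 array left out.

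In the other 4 undone genes the untreated gliospheres were higher than in vivo and LPS brought the level back down. Clec14a, an endothelial surface lectin, read 3.10, 2.65 and 2.87 with LPS, 5.03, 5.06 and 5.95 untreated and 3.30, 3.14 and 2.14 in vivo. Hspb3, a small heat shock protein, read 5.31, 4.47 and 4.19 with LPS, 7.18, 7.77 and 7.41 untreated and 4.33, 2.84 and 3.84 in vivo. Clec14a, Bbox1 and Kcnk6 were above background in the untreated group alone, where they were at least 1.52-fold, 1.89-fold and 1.92-fold above in vivo. The steps of these 4 genes were lost without 5 or more of the 9 arrays in turn (highest adjusted p = 0.104 for Clec14a, Hspb3 and Kcnk6 and 0.212 for Bbox1), and without in vivo array 1 the remaining Hspb3 difference passed. With the litter as a block, 4 genes in all were classed as undone, 2 of them among the 13. In that fit Hspb3, Clec14a and Bbox1 missed the threshold (adjusted p = 0.062, 0.054 and 0.0851). In the authors' normalised values the steps of Bbox1, Clec14a and Kcnk6 did not pass (adjusted p = 0.203, 0.113 and 0.193).

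In 4 genes LPS reduced a deficit without closing it. Iqsec3, an exchange factor for ARF proteins at inhibitory synapses, read 6.55, 6.21 and 6.23 with LPS, 4.52, 3.57 and 4.35 untreated and 10.98, 11.05 and 10.93 in vivo. LPS raised it by 2.18 ± 0.28 from background (adjusted p = 0.0097) and left it 4.65 ± 0.28 below in vivo, with calls that held with each array left out. Junb, an AP-1 subunit and immediate early gene, read 10.67, 11.45 and 10.96 with LPS, 8.95, 9.60 and 9.22 untreated and 12.68, 12.70 and 12.47 in vivo, a remaining difference of -1.59 ± 0.27. The steps of Junb, Tm4sf4 and the potassium channel gene Kcnh1 were each lost without 5 of the 9 arrays in turn (highest adjusted p = 0.103, 0.141 and 0.107), that of Kcnh1 with the litter block (0.113), and the Tm4sf4 difference from in vivo without LPS array 1 (0.0535). In the authors' normalised values the Iqsec3 and Kcnh1 steps did not pass (0.0943 and 0.175).

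Rgs8, which speeds the shut-off of G protein signals, was the 1 gene turned from below to above the in vivo level. It read 9.36, 9.69 and 9.02 with LPS, 5.82, 5.21 and 4.75 untreated and 7.85, 6.93 and 7.18 in vivo, with no overlap between any groups. Its difference from in vivo was -2.06 ± 0.35 untreated and 2.04 ± 0.35 with LPS (adjusted p = 0.0033 and 0.0028). The Rgs8 step held with each array left out and with the litter block.

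**Figure D3:**
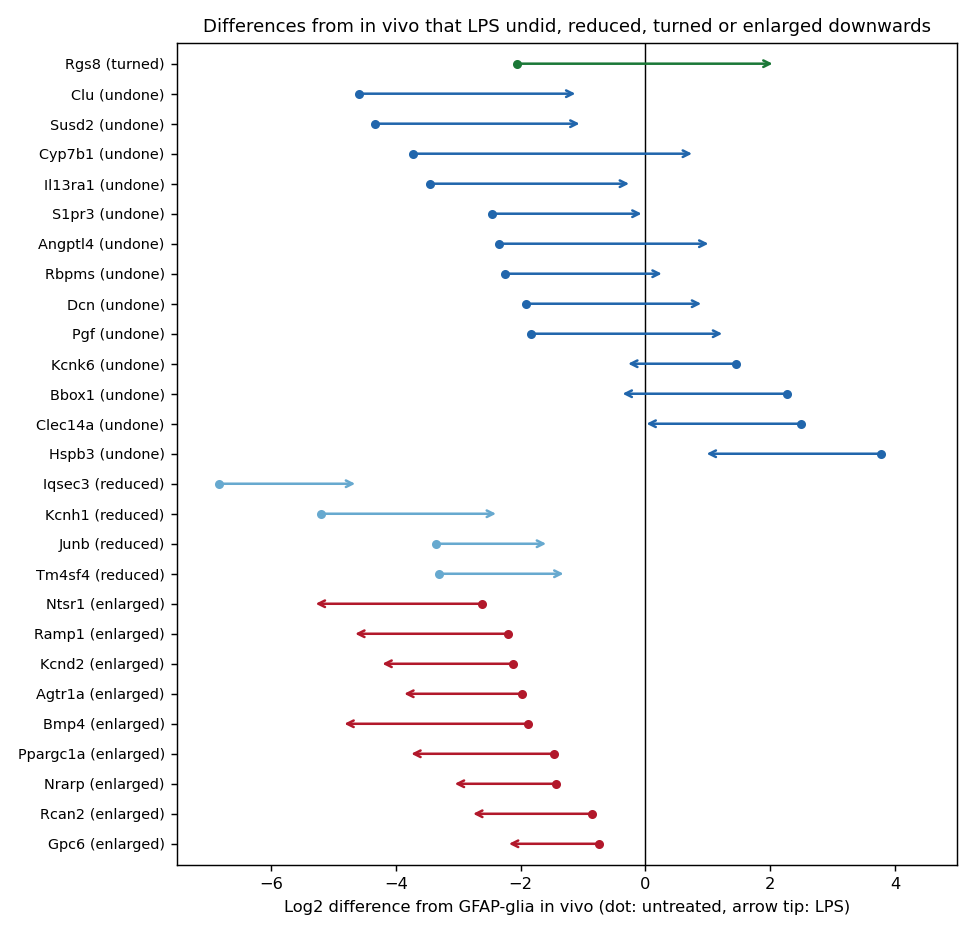
Arrows run from the log2 difference of untreated gliospheres from GFAP-glia in vivo to that of LPS-stimulated gliospheres, 1 arrow for each undone, reduced, turned or downward enlarged gene. Arrows of the undone genes end between -1.12 and 1.23, the Rgs8 arrow crosses 0, and those of the 9 downward enlarged genes lead away from 0.

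More differences were left alone within 2-fold than LPS changed past the test. Of the 1168 genes left alone within 2-fold, 683 were higher and 485 lower than in vivo, and the median absolute LPS change was 0.12. Of the 485 lower ones, 83 were above background on no LPS array and 78 on no untreated array. Where a gene is at background in both, its narrow interval does not measure an LPS change. Lpl, lipoprotein lipase, read 10.75, 11.43 and 11.16 with LPS, 11.01, 10.83 and 11.04 untreated and 4.67, 5.04 and 4.91 in vivo. The gliosphere arrays of Lpl overlapped with and without LPS and lay far above the in vivo arrays, by 6.24 ± 0.24 and 6.09 ± 0.24, and the LPS change was 0.15 (-0.39 to 0.70). Artn, the neurotrophic factor artemin, read 10.36, 10.93 and 10.20 with LPS, 9.77, 11.05 and 10.30 untreated and 5.50, 6.10 and 6.06 in vivo. Adam12, a membrane metalloproteinase, stood 4.67 ± 0.32 above in vivo with LPS and 4.66 ± 0.32 untreated. Fam181b and Pqlc3 were the other members with the largest differences upwards, at 4.11 ± 0.27 and 4.53 with LPS.

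The lower genes left alone were led by neuronal genes. Prph, the neuronal filament peripherin, read 6.02, 5.14 and 5.91 with LPS, 5.89, 5.85 and 6.01 untreated and 12.89, 11.95 and 11.89 in vivo. Its difference from in vivo was -6.56 ± 0.34 with LPS and -6.33 ± 0.34 untreated, with an LPS change of -0.23 (-0.99 to 0.54). Dbh, which makes noradrenaline, Nefm, a neurofilament, and Adcyap1, the precursor of the neuropeptide PACAP, were above background on no gliosphere array of either kind. They were at least 41.9-fold, 42.8-fold and 20.9-fold lower with LPS than in vivo, and Krt23, a keratin, at least 31.7-fold. At this depth of signal no further fall of such genes could have been seen. Vim, the intermediate filament vimentin, was left alone too, 1.63 ± 0.23 above in vivo with LPS and 1.58 ± 0.23 untreated.

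Outside these classes, the differences of LPS-stimulated gliospheres from in vivo with the largest size were mostly ones already present untreated. Olig1, a transcription factor of the oligodendrocyte lineage, read 13.37, 12.56 and 12.21 with LPS, 12.78, 12.68 and 12.15 untreated and 6.03, 6.32 and 2.73 in vivo. The LPS and untreated Olig1 arrays overlapped, and the difference from in vivo was 7.69 ± 0.83 with LPS, while the interval of the LPS change (-1.69 to 2.04) was too wide to call it left alone. Gpnmb, a membrane glycoprotein of lysosome-rich cells, was at least 154-fold above in vivo with LPS and at least 59.6-fold untreated. Apod, a lipid-binding apolipoprotein, rose from 4.60 ± 0.24 to 5.88 ± 0.24 above in vivo in arrays that did not overlap, but the LPS change of 1.28 ± 0.24 missed the threshold (adjusted p = 0.051). Has2, a hyaluronan synthase, Ccdc3, Tnfaip8 and Ecm1 stood 5.26 ± 0.48, 5.78 ± 0.38, 5.01 ± 0.38 and 4.87 ± 0.63 above in vivo with LPS. Myl1, a myosin light chain of skeletal muscle, had the lowest difference from in vivo among genes above background in both groups, at 6.01, 5.19 and 4.09 with LPS, 7.46, 7.14 and 6.51 untreated and 13.87, 14.31 and 13.96 in vivo. It fell by 8.95 ± 0.46 relative to in vivo, with an LPS change of -1.94 ± 0.46 that did not pass (adjusted p = 0.13). The neuropeptide genes Nmu and Grp, the calcium sensor Scgn and Fibcd1 were above background on no gliosphere array and at least 260-fold, 191-fold, 101-fold and 163-fold lower with LPS than in vivo.

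The gene lists were read by counts beside the 14.8% higher and 14.5% lower of all genes tested. A gene was tested only where it was above background on at least 1 of the 9 arrays. Genes seen in gliospheres alone thus entered through the groups where they were high. Of 26 chemokine ligands on the array 14 were tested. Of these 14, 7 were above background on no in vivo array and 0 on no LPS array. For cytokines the 4 numbers were 23, 14, 6 and 1, so these counts do not describe the whole lists. Of 14 chemokine ligands tested 11 were higher with LPS than in vivo and none lower, of which 3 were already higher untreated, and 9 passed LPS against untreated. The median chemokine difference from in vivo was 4.85 with LPS and 1.12 untreated (4.41 and 0.53 with bounds), beside 0.08 and 0.09 for all genes. The 3 ligands that did not pass were Ccl12, Ccl25 and Cxcl14. Of 14 cytokines 8 were higher, including Csf1, the macrophage growth factor, at 4.10, and Il15, which was higher at 2.39 with LPS and 3.11 untreated. Tnf and Il33 were among the 6 that did not pass. Of 17 acute-phase and antimicrobial genes 12 were higher and 1, Camp, lower, against 7 and 2 untreated. Of 20 NF-kB components and regulators 14 were higher against 5 untreated, with Birc3 at least 2.08-fold and Bcl3 and Relb at 4.01 and 3.81.

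The receptor machinery for LPS was in part higher in gliospheres before LPS. Among 14 genes that sense LPS or signal from Toll-like receptors, 9 were higher than in vivo with LPS and 7 untreated, and 3 passed LPS against untreated (Tlr2, Map3k8 and Cd14). Tlr4 was above background on no in vivo array and on all gliosphere arrays, at least 8.61-fold above in vivo with LPS (adjusted p = 0.00012), and its change with LPS was not past the test (1.07; adjusted p = 0.64). Interferon-stimulated genes differed from this pattern, with 4 of 21 higher than in vivo (Ifit2, Gbp2, Gbp5 and Ddx58) and 2 lower (Oasl2 and Rsad2). In vivo array 3 had the highest mean over these genes, 8.08 against 6.40 and 6.51 on the other in vivo arrays and 7.04 to 7.35 with LPS. Of 17 genes of antigen presentation 1 was higher, B2m, and 3 class II genes lower, H2-Ab1 at least 4.71-fold. The calls of B2m, H2-Eb1 and H2-DMa were lost without 3, 4 and 3 of the 9 arrays in turn (highest adjusted p = 0.0678, 0.0992 and 0.0842).

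Matrix genes went both ways. Of 20 metalloproteinases and inhibitors 11 were higher with LPS than in vivo and 1, Mmp24, lower, and 6 passed LPS against untreated. Of 27 collagens and matrix glycoproteins 10 were higher and 6 lower with LPS, against 8 higher and 0 lower untreated. Tnc, tenascin C, stood 3.03 above in vivo with LPS and 1.98 untreated, and Bgn, biglycan, 2.43 and 2.54. Among the 6 lower genes, Eln, Col28a1 and Spon1 also passed LPS against untreated. Col14a1 was at least 7.77-fold lower with LPS, a call lost without LPS array 1 (adjusted p = 0.0533).

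Of 13 mitosis genes 6 were higher than in vivo untreated, with a median of 1.45, and 0 with LPS, with a median of 0.32 (1.29 and 0.20 with bounds). At an unadjusted p under 0.05, 1 of the 13 was higher with LPS than in vivo, beside 2370 of all 10796 genes tested. The mean level of the mitosis list was 8.33, 8.42 and 7.72 untreated, 7.27, 6.76 and 7.05 with LPS and 7.46, 7.07 and 5.77 in vivo. The LPS arrays thus lay below all untreated arrays and within the in vivo range, which is widened by in vivo array 3. The test of the change itself, LPS against untreated with limma, passed for 0 of the 13 genes. At an unadjusted p under 0.05, 8 of the 13 were lower, beside 424 of all 10796 genes tested. Of 17 DNA replication genes 2 were higher than in vivo with LPS, Pcna and Rrm2, and 5 untreated. Both calls were lost without LPS array 1, and that of Pcna also without LPS array 3 or in vivo array 2 (highest adjusted p = 0.0798 for Pcna and 0.0625 for Rrm2).

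**Figure D4:**
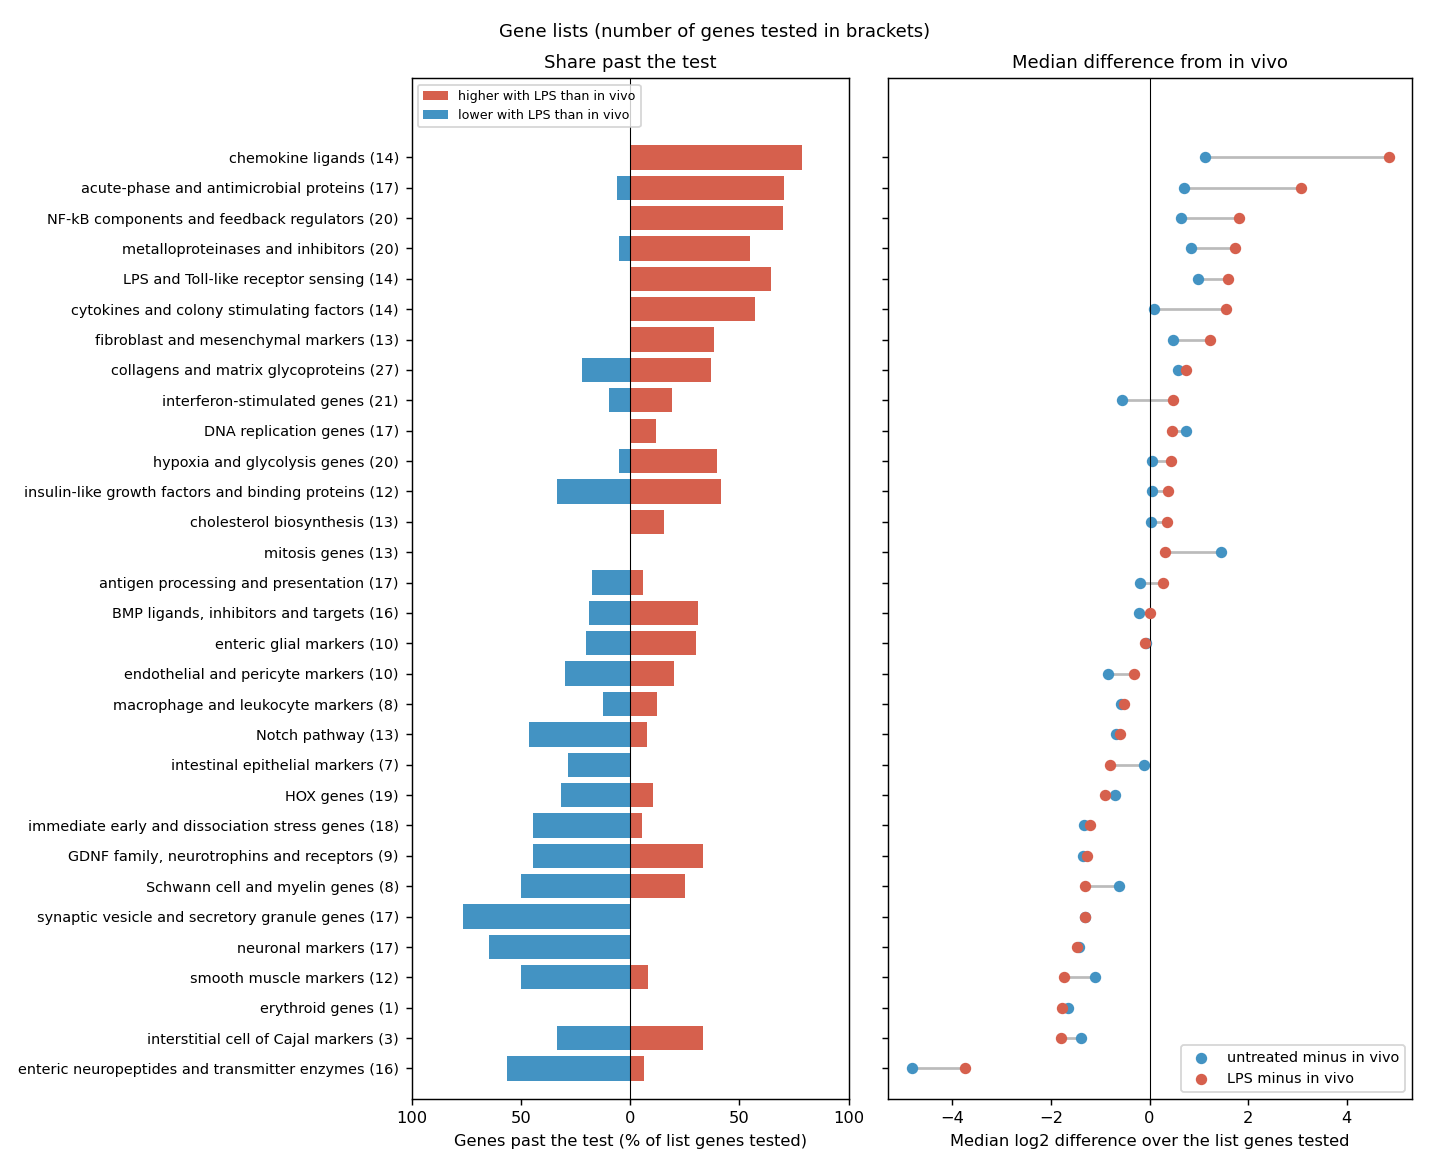
For each gene list, the left panel gives the percent of its tested genes higher or lower with LPS than in vivo, and the right panel the median log2 difference from in vivo of untreated and of LPS-stimulated gliospheres. Chemokines move from 1.12 to 4.85, while neuronal, synaptic and smooth muscle lists lie below 0 in both.

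Neuronal lists were lower than in vivo to a like extent with and without LPS. Of 16 neuropeptide and transmitter genes 9 were lower with LPS and 11 untreated, of 17 synaptic vesicle and granule genes 13 and 12, and of 17 neuronal markers 11 in each. The medians were -3.75 and -4.82 (-4.54 with bounds), -1.31 and -1.30, and -1.48 and -1.43, and 0 of these 50 entries passed LPS against untreated by limma, while 3 were higher and 4 lower at an unadjusted p under 0.05. Over all 10796 genes tested, 444 were higher and 424 lower at that unadjusted level. Tac1, the precursor of substance P, read 12.60, 12.57 and 12.55 in vivo, 4.90, 5.12 and 6.32 untreated and 5.31, 5.62 and 6.33 with LPS. Calb2, calretinin, a calcium-binding protein of enteric neurons, fell by 6.07 ± 0.72 relative to in vivo, with in vivo array 1 the lowest of its group. Npy, a neuropeptide, was the 1 gene of these lists that was higher with LPS than in vivo.

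Of 18 immediate early and dissociation stress genes tested, 8 were lower with LPS than in vivo, 1, Ier3, was higher and 9 did not pass, and 9 were lower untreated. Fosb read 9.47, 12.71 and 11.46 in vivo, 5.03, 6.70 and 5.39 untreated and 4.59, 3.81 and 3.77 with LPS. Hspa1a, the inducible heat shock protein 70, stood at 11.43, 13.03 and 12.69 in vivo and 7.09, 8.47 and 6.97 with LPS. Fos, Klf2 and Hspa1a had differences of -2.68, -5.05 and -4.87. Enzymatic digestion and sorting preceded lysis in the in vivo group and lay more than 2 weeks back in the gliospheres, and their part in these values was not tested.

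Growth factor genes diverged by member. Gdnf, which supports enteric neurons and their precursors, was at least 26-fold above in vivo with LPS and on no in vivo array above background, while its change with LPS was -0.67 (-1.92 to 0.57). Ntrk3, the receptor of neurotrophin 3, and Nrg1, neuregulin 1, were lower than in vivo, by differences of -3.86 and -2.27. In the BMP list, Nog, the inhibitor noggin, was at least 5.15-fold lower, Smad6 at least 3.00-fold lower and Bmper 3.23 ± 0.28 higher with LPS, and 5 of 16 genes were higher and 3 lower. In the Notch list 6 of 13 were lower and 1 higher, against 3 and 2 untreated. The Notch target Heyl read 6.68, 5.61 and 5.50 with LPS, 8.19, 8.31 and 7.58 untreated and 8.12, 9.25 and 8.71 in vivo. All LPS arrays of Heyl lay below both reference groups, with a difference of -2.76 ± 0.41 from in vivo, and its LPS step missed the threshold (-2.10; adjusted p = 0.06). Of 12 genes of the insulin-like growth factor system 5 were higher, including Igfbp3 at 5.41 ± 0.78, and 4 lower, including Igf2 at -4.18 ± 0.30. Of 19 HOX genes 2 were higher and 6 lower with LPS, and 2 and 5 untreated. The call of Hoxb5, at -1.72, was lost without any 1 LPS array or in vivo array 2 or 3 (highest adjusted p = 0.0752). Hoxb6 lay at -2.65 with LPS and -2.66 untreated.

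The remaining lists hold metabolic genes and markers of other cells. Of 20 hypoxia and glycolysis genes 8 were higher with LPS than in vivo and 1 lower, against 6 and 2 untreated. Egln3, an oxygen-dependent hydroxylase, stood at 3.40 with LPS and 2.56 untreated, and Hk2, hexokinase 2, at 3.73 and 1.90. The cultures were kept at 2% oxygen, and its part was not tested. Of 13 cholesterol genes 2 were higher, Stard4 and Cyp51, both lost without 6 of the 9 arrays in turn (highest adjusted p = 0.14 and 0.117). Of 13 mesenchymal markers 5 were higher with LPS and none lower, Meox1 at least 30.7-fold, and of 8 Schwann cell genes 2 were higher and 4 lower, with Mag at least 4.75-fold lower. Of 10 endothelial and pericyte markers 2 were higher and 3 lower, with Vwf at least 8.65-fold lower, and of 7 epithelial markers 2 were lower, Krt19 at least 14.7-fold. The second, Krt8, was lost without 6 of the 9 arrays in turn (untreated array 3, any 1 LPS array or in vivo array 1 or 2; highest adjusted p = 0.11), with array weights (0.063), without the background filter (0.0537) and with the replicate block (0.053). Of 3 markers of interstitial cells of Cajal 1 was higher, Etv1, lost without LPS array 1 or 3 (highest adjusted p = 0.0511), and 1 lower, and the 1 erythroid gene did not pass.

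Untreated array 1 resembled the LPS state most among the untreated arrays in the genes that LPS raised. It was the highest of the 3 untreated arrays in 52 of the 82 genes higher with LPS than untreated (63.4%), and in 41.8% of all genes tested. The mean level of the chemokine list was 6.80 on this array and 5.50 and 5.79 on the other two, against 8.84 to 9.19 with LPS.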

How the data were processed

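RNA from 3 pooled litters per group was hybridised to Illumina MouseRef-8 v2.0 BeadChips. The deposited table holds raw probe signal intensity and a detection p-value for each array, exported by the authors from GenomeStudio (no version given in the sources used here). Another deposited table holds intensity values normalised by the authors, whose distribution is the same on every array (medians 164.2 to 164.4). It was used only as an alternative.

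The decimal point was lost from 95.7% to 98.2% of the cells in each column of both. The points were restored from each probe's values in both tables, which left out 1 of 25697 probes. The rule restored 179995 of 180000 cells with removed points in simulated data.

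Signals were background-corrected by normexp with limma's detection p-value method and variance-stabilised on a log2 scale, after the methods of the study, with code written for this purpose in place of the vsn package. Probes with a detection p-value above 0.05 on all 9 arrays were removed, which left 14794 probes. Each of the 10796 genes was represented by its probe with the highest mean. All 9 arrays were fitted together with limma 3.58.1 in R 4.3.3, and p-values were adjusted by Benjamini-Hochberg over all probes. The models were tested on simulated data. The number of arrays limits the precision. Symbols were matched to RefSeq (GRCm38.p6) through gene identifiers (23961 probes), accessions (9) or the platform's own symbols (7), and 1719 had none.

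LPS and untreated arrays of the same number come from 1 litter by the design of the study, so they are paired. The main fit, from which the classes come, did not use this pairing. After subtracting group means, the paired arrays correlated at 0.16, 0.09 and 0.17. The same values were 0.07, 0.04 and 0.00 between same-numbered LPS and in vivo arrays and -0.18, -0.15 and 0.02 between untreated and in vivo arrays, which no source pairs.

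The gene lists and the genes described were chosen with earlier results of these data known. Named by rule were the 10 highest and 10 lowest differences of genes measured in both groups without overlap, the 5 brightest per direction of genes above background in 1 group alone, up to 5 genes per class and direction, up to 4 per list, and Gfap, S100b, Acta2 and Vim. Other genes were named after their values were seen. Alternatives covered normalisation, background, the detection filter, the arrays in the fit, array weights, a trended prior, replicate blocks, the choice of probe, a minimum difference and leaving out each array.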

Additional observations from a re-analysis of the deposited data

Results flagged for a closer look

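In 9 genes with a called LPS change, all untreated arrays lay on one side of the in vivo arrays and all LPS arrays on the other. The untreated arrays enter both the placement and the call. The call was part of the choice, and 16 genes lay on opposite sides with or without it. On the log2 scale they were 3.353 for Angptl4, 2.791 for Cebpb, -3.83 for Col28a1, 2.802 for Dcn, -1.523 for Eln, -1.739 for Il2rb, -1.919 for Kcnn2, 1.35 for Nxn and 4.095 for Rgs8. Of these, only Rgs8 passed the test against in vivo both with and without LPS. Kcnn2, a calcium-activated potassium channel gene, passed neither (adjusted p = 0.074 with LPS and 0.055 untreated). Il2rb was above background on no LPS and no in vivo array, so the side on which its LPS arrays lie has no measured order.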

How the results depend on the processing

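No result reversed its direction under the alternatives run. Of the 162 genes named for LPS against in vivo, 152 passed the test, and 137 of these passed in every alternative that was run. For LPS against untreated 8 of 51 did, and for untreated against in vivo 29 of 34. Quantile normalisation gave 9 reduced, 3 turned and 1942 left alone genes. Without background correction 2 were turned. In the authors' normalised values 7 were turned and 2471 left alone. With probes above background on at least 3 of the 9 arrays 2 were turned. Fits of the compared groups alone called 159 LPS changes. Array weights called 338, with 98 enlarged, 126 new, 52 undone, 21 reduced, 2 turned and 1824 left alone. A trended and robust prior gave 10 reduced and 2 turned. The replicate number as a block over all 9 arrays called 2832 genes for LPS against in vivo and gave 2 turned, though in vivo arrays share only the number. A pair of further fits were chosen after seeing the data. With the LPS change from the gliosphere arrays alone 58 genes were enlarged, and with the litter as a block 4 were undone. The litter block called 90 LPS changes and, apart from those given with the results, changed the class counts by less than 1.5 times. With it 23 of 37 enlarged, 25 of 48 new, 2 of 13 undone and 3 of 4 reduced genes kept their class. In the authors' normalised values 24 of 37 enlarged, 34 of 48 new, 5 of 13 undone and 2 of 4 reduced genes did.

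With 1 array left out, calls ranged from 2134 to 3904 for LPS against in vivo, 1824 to 3487 for untreated against in vivo and 32 to 177 for LPS against untreated. Class counts ranged from 15 to 62 for enlarged, 11 to 76 for new, 3 to 22 for undone, 1 to 10 for reduced, 1 to 3 for turned and 510 to 1968 for left alone. The highest of each came without in vivo array 1. The causes were not tested. Genes near background have only bounds, which limits what these arrays can show of their further fall.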
